A study of Mus musculus with 12 samples.

Results

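The 200 highest expressed lincRNA genes of U2OS cells, a human osteosarcoma cell line, were examined across 12 RNA sequencing libraries. Long intergenic non-coding RNAs (lincRNAs) are transcripts without a long open reading frame whose genes lie apart from the coding exons of other genes. Many are spliced and polyadenylated like mRNA. Some act in the nucleus on chromatin or on neighbouring genes and others act in the cytoplasm on proteins, mRNA or microRNAs, but most have no known function.

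The libraries formed 4 groups of 3 replicates. The blank group was U2OS cells for which the labels name no siRNA and no overexpression. The siSRSF1-2 and siSRSF1-3 groups were U2OS cells that received 1 of 2 small interfering RNAs against SRSF1, a serine/arginine-rich splicing factor, and the OE-LINC01134 group was U2OS cells overexpressing the lincRNA LINC01134. The study's methods give a dose and a time for siRNA transfection of HOS, another osteosarcoma line, and whether they apply to these U2OS libraries is uncertain. No library of cells given a control siRNA or an empty vector was analysed here, so an effect of delivery cannot be told apart from that of the agent. All 3 comparisons with blank used the same 3 blank libraries, and nothing in the labels says whether the replicates were separate cultures, so the p-values measure only the spread between these libraries.

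Members were chosen by their mean FPKM (fragments per kilobase of gene length, scaled to library size) over the 12 libraries. Of 58735 genes listed, 7629 had the biotype lincRNA. After 15 genes were left out by name (LINC01134, MALAT1, NEAT1, NORAD, PVT1, DIRC3 and the small nucleolar RNA host genes), 7614 remained, and the 200 with the highest mean were kept. Their mean FPKM ran from 4.74 to 310 with a median of 9.07. All 200 passed the minimum mean of 0.5 FPKM used in the tests, as the choice itself required. The last members by rank were LINC01297 at 4.83 FPKM, ENSG00000277693 at 4.82, C2orf48 at 4.76, LINC01667 at 4.74 and NUP50-DT at 4.74. The first genes outside were MANCR at 4.72, LINC02104 at 4.66, ENSG00000250899 at 4.64 and a second copy of LINC01297 at 4.64. Reads of the LINC01297 copies may be shared between them, so their levels are uncertain. The means that chose the members included all groups, and choosing by the mean of a single group kept 177 of the 200 with blank, 173 with siSRSF1-2, 167 with siSRSF1-3 and 167 with OE-LINC01134.

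Reads on genes numbered 26237763 to 32954539 in a library. SRSF1 itself was at 35.9, 19.8 and 20.5 FPKM in the blank libraries, 7.09, 7.46 and 7.41 with siSRSF1-2, 3.33, 6.81 and 7.90 with siSRSF1-3 and 31.8, 29.6 and 30.3 with OE-LINC01134. Its log2 fold change was -1.72 ± 0.23 (SE) with siSRSF1-2 (limma, adjusted p = 0.0050) and -2.09 ± 0.38 with siSRSF1-3 (limma, adjusted p = 0.0518). LINC01134 was at 0.497 to 1.11 FPKM in the 9 other libraries and at 878 to 1279 with OE-LINC01134. Of 12 mesenchymal and osteoblast markers, VIM was highest at a mean of 140 FPKM over the libraries, and SPARC, FN1, COL1A1, THY1, ALPL, RUNX2 and COL5A2 lay between 1.67 and 51.3, while SP7, BGLAP, IBSP and COL1A2 were near 0, at 0.0058 to 0.19. The summed level of these markers was 364 to 490 FPKM in blank, 203 to 209 with siSRSF1-2, 189 to 294 with siSRSF1-3 and 183 to 421 with OE-LINC01134. The 4 epithelial markers summed to 2.59 to 4.39 FPKM and the 3 endothelial markers to 0.247 to 0.662. Among the 4 blood markers, CD3E was at 0 in all libraries and HBB, made up nearly all of the sum, at 5.93 to 7.72 FPKM in blank, 12.2 to 15.8 with siSRSF1-2, 10.01 to 50.9 with siSRSF1-3 and 6.62 to 7.35 with OE-LINC01134, and its part in the results was not tested. Of these marker lists, limma called VIM and THY1 lower with siSRSF1-2 and ALPL lower with OE-LINC01134, and no other member of them in a comparison with blank. Over all genes tested, 4.95% were called with siSRSF1-2, 1.26% with siSRSF1-3 and 0.85% with OE-LINC01134. In bulk RNA, fewer cells with a transcript and less of it per cell cannot be told apart.

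Libraries within a group were not equally alike. Over the members, blank replicates 2 and 3 correlated at r = 0.98 in log2 FPKM, while blank replicate 1 correlated at 0.74 with each of them and at 0.84 with OE-LINC01134 replicate 2. OE-LINC01134 replicates 1 and 3 correlated at 0.99 and replicate 2 at 0.85 and 0.84 with them. The siSRSF1-2 libraries correlated at 0.98 with each other. The siSRSF1-3 libraries were spread, with r = 0.92 for replicates 1 and 2, 0.85 for 2 and 3 and 0.69 for 1 and 3, and replicate 3 correlated at 0.90 and 0.89 with siSRSF1-2 replicates 1 and 2. These correlations are across 200 genes, which are not independent. The close pairs differed by more than counting noise (chi-square per degree of freedom of 2.13 to 3.20), so each library was counted as 1 replicate. Counts of calls are therefore given with and without the libraries that stand apart.

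LINC00973 was the highest member. It stood at 129, 201 and 208 FPKM in blank, 330, 305 and 331 with siSRSF1-2, 571, 504 and 383 with siSRSF1-3, and 298, 156 and 301 with OE-LINC01134. Every library of either siRNA lay above every blank library, and the OE-LINC01134 libraries overlapped the blank ones. The next was ENSG00000274213, an unnamed gene whose start lies back to back with that of TRIM25, 106 bases away on chromosome 17 (56914186 to 56914533, coordinates as in the deposited table, whose build is not named). It was at 26.3, 60.3 and 55.5 FPKM in blank, 57.7, 60.7 and 59.5 with siSRSF1-2, 784, 323 and 125 with siSRSF1-3, and 73.0, 34.0 and 77 with OE-LINC01134. The siSRSF1-3 libraries stood above all others but differed among themselves by several fold, and its change did not pass the test (log2 fold change 2.83 ± 0.67, limma adjusted p = 0.077).

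The other 8 of the 10 highest members had group means between 15.3 and 173 FPKM. PICSAR, named for its link to squamous cell carcinoma, was at 33.8, 32.5 and 28.9 FPKM in blank, 61.6, 56.5 and 58.6 with siSRSF1-2, 280, 160 and 77.5 with siSRSF1-3 and 46.1, 36.8 and 45.6 with OE-LINC01134. Every blank library lay below every other library, and the order of the group means was blank, OE-LINC01134, siSRSF1-2, siSRSF1-3. ENSG00000206532 varied least of the 10, with 52.6 to 107 FPKM. LINC00520 and LINC01711 were lowest with OE-LINC01134, at 19.3, 23.3 and 19.6 FPKM and at 16.7, 49.2 and 17.0 FPKM, against 35, 64.7 and 67.3 and 44.8, 49.2 and 54.4 in blank. The LINC01711 value of OE-LINC01134 replicate 2 lay inside the blank range, while both other replicates lay below it. SFTA1P, a transcribed pseudogene named for surfactant genes, had its highest values with siSRSF1-3, at 270, 130 and 69.3 FPKM, against 63.6, 28.9 and 32.5 in blank. LINC02434 was at 159, 143 and 110 FPKM with siSRSF1-3 and at 41.8, 75.3 and 77.4 in blank.

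**Figure D1:**
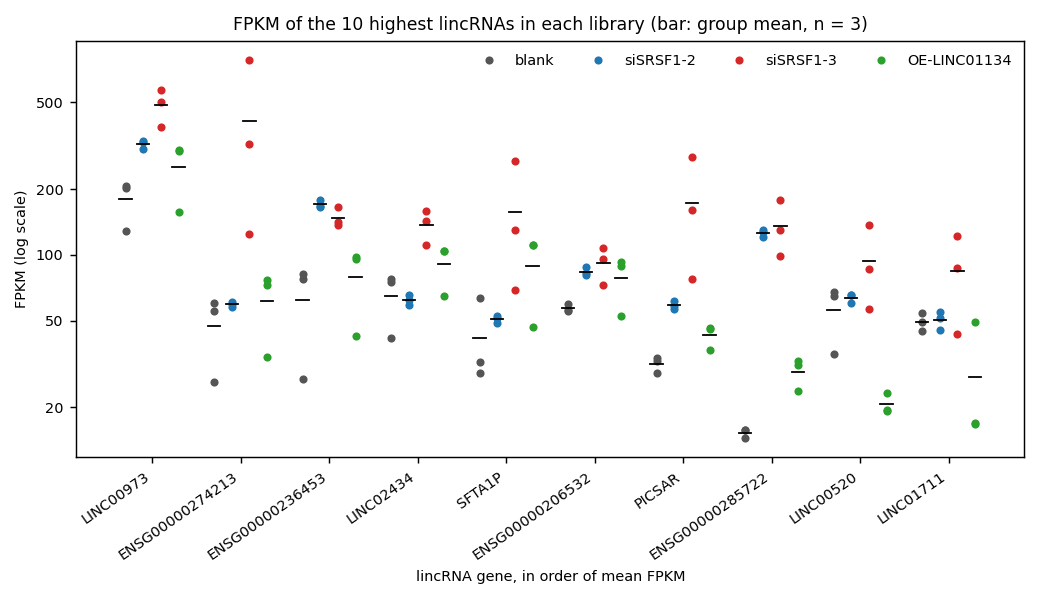
Each point is the FPKM (log axis) of 1 library for the 10 lincRNAs with the highest mean, in order of that mean, with groups by colour and bars at the group means of 3 libraries. The siSRSF1-3 points of ENSG00000274213 spread from 125 to 784 FPKM, and ENSG00000285722 stands at 14.4 to 15.8 FPKM in blank and 98.3 to 178 with either siRNA.

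Most members were poorly annotated. Of the 200, 108 had no gene name, 53 had only a LINC number, 4 were microRNA host genes and 35 had another name. Their gene length had a median of 1158.5 bases, against 5034 bases for protein coding genes tested and 889 for the other lincRNA genes tested. In position, 88 overlapped another listed gene, 63 of them a gene on the opposite strand, 32 lay within 5 kb of a protein coding gene without overlap and 80 were farther away. It is not stated whether reads were counted by strand, so reads of overlapping genes cannot be told apart. The start of 32 members lay back to back with that of a protein coding gene within 5 kb. The 10 highest members held 32.9% of the members' summed mean FPKM.

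The spread over the libraries differed widely among members. The SD of log2 FPKM over the 12 libraries had a median of 0.61 for members, 0.39 for protein coding genes tested and 0.46 for all 17538 genes tested. The ratio of the highest to the lowest library ran from 1.32 for LINC00667 to 174 for ENSG00000254038, with a median of 4.4, where the lowest value of ENSG00000254038 rested on 1 read in siSRSF1-3 replicate 1. LINC01410, ZNF674-AS1, LINC00958 and LINC02506 were other steady members, with ratios of 1.46, 1.48, 1.49 and 1.5. These steady and variable genes were chosen after their values were seen. The highest group mean was siSRSF1-3 for 125 members, siSRSF1-2 for 37, OE-LINC01134 for 23 and blank for 15, and 115 members had their highest value in the single library siSRSF1-3 replicate 1. This order was part of what chose the members, since their mean included those libraries.

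The comparison of siSRSF1-2 with blank asks which lincRNAs differ in cells given a siRNA against SRSF1. Of the 200 members, 12 were higher and 9 lower past the threshold, which was a limma adjusted p under 0.05 over all genes tested with an absolute log2 fold change over 1. Over all 17538 genes tested, 2.22% were called higher and 2.73% lower, 4.95% in all. The members called were 6.0% and 4.5% of the 200. Since the siSRSF1-2 libraries took part in choosing the members, these shares are a description. Choosing 200 lincRNA genes by their blank mean alone gave 7 higher and 13 lower, with a median log2 fold change of 0.05. That choice in turn favours genes that are high in blank. The members' median log2 fold change was 0.16 against 0.02 for all genes tested. By unadjusted p under 0.05 and the fold required, 13 were higher and 9 lower, against 3.06% and 3.43% of all genes. Without blank replicate 1, which stood apart, 18 members were higher and 11 lower, against 3.03% and 3.74% of all genes, and the members' median was 0.00. Without siSRSF1-2 replicate 1, 2 or 3 there were 8 and 5, 7 and 5, and 4 and 7. In the same order, 1.45% and 1.89%, 1.27% and 1.94%, and 1.15% and 1.9% of all genes were called. The siSRSF1-2 libraries lay wholly above the blank libraries for 57 members and wholly below for 26, against 25.3% and 24.2% of all genes. Rescaling FPKM to the same sum in every library gave 18 higher and 6 lower, against 3.44% and 1.94% of all genes, and moved the median of all genes to 0.15.

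The largest increase was that of ENSG00000285722, an unnamed gene on chromosome 22 (49372924 to 49377119) with no coding gene within 396164 bases. It was at 15.8, 14.4 and 15.7 FPKM in blank and rose to 120, 127 and 130 with siSRSF1-2. The groups did not come near each other, and the log2 fold change was 3.03 ± 0.06 (SE, limma adjusted p = 7.32e-05). With siSRSF1-3 it was at 178, 130 and 98.3 FPKM, a log2 fold change of 3.09 ± 0.25 (limma adjusted p = 0.018). It was the sole member past the threshold upward with both siRNAs, in comparisons that share the blank libraries. With OE-LINC01134 it was at 32.5, 23.7 and 31.4 FPKM, above every blank library but short of the fold required (log2 fold change 0.91 ± 0.15). Its nearest coding gene, BRD1, which encodes a bromodomain protein, differed from blank by 0.28 (log2) with siSRSF1-2 and by -0.37 with siSRSF1-3, neither past the threshold.

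LINC01443 and LINC01444 rose together with siSRSF1-2. Their genes overlap on opposite strands of chromosome 18 (14946267 to 14974215 and 14969001 to 14970468), so their reads cannot be told apart where they overlap. LINC01444 went from 15.4, 30.8 and 31.8 FPKM in blank to 68.6, 66.2 and 68.1, a log2 fold change of 1.45 ± 0.28 (limma adjusted p = 0.014). LINC01443 went from 2.17, 4.22 and 4.96 FPKM to 10.5, 10.9 and 11.1, a log2 fold change of 1.57 ± 0.29 (limma adjusted p = 0.013). In both genes the siSRSF1-2 libraries agreed closely and blank replicate 1 was the lowest blank library. Both calls were lost when any 1 siSRSF1-2 library was left out, with an adjusted p of up to 0.060 for LINC01444 and 0.058 for LINC01443.

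ENSG00000236453, the member with the third rank, rose from 26.9, 77.7 and 81.9 FPKM to 168, 166 and 179, a log2 fold change of 1.62 ± 0.43 (limma adjusted p = 0.037). Its groups did not overlap, although blank replicate 1 was far under the other blank libraries, and this call too was lost without any 1 siSRSF1-2 library. ENSG00000235499, which lies 61 bases from TET3, a gene for a methylcytosine dioxygenase, was at 3.61, 3.70 and 1.41 FPKM in blank and 8.84, 9.03 and 9.18 with siSRSF1-2 (log2 fold change 1.72 ± 0.36, limma adjusted p = 0.019). TET3 had a log2 fold change of 0.79 in the same comparison, under the fold required. The call of ENSG00000235499 was also lost without any 1 siSRSF1-2 library, and its blank values rested on 39, 41 and 18 reads. With siSRSF1-3 this gene was at 0.392, 0.908 and 3.86 FPKM, on 3, 9 and 47 reads, so replicates 1 and 2 lay below every blank library. LINC01705 rose from 23.5, 33.2 and 33.9 FPKM to 63.8, 70.1 and 75.9 (log2 fold change 1.22 ± 0.16, limma adjusted p = 0.0044), with no overlap, and kept its call without any 1 library. The other 6 members called higher had log2 fold changes of 1.0 to 1.33.

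Among the members that fell with siSRSF1-2 was UCA1, a lincRNA first described in bladder carcinoma and studied for its link to proliferation. UCA1 (chromosome 19, 15828206 to 15836326) was at 10.4, 13.6 and 13.2 FPKM in blank and at 3.54, 3.49 and 3.8 with siSRSF1-2. Its log2 fold change was -1.75 ± 0.12 (limma adjusted p = 0.0011). GASAL1, named for growth arrest, fell from 8.90, 9.71 and 9.03 FPKM to 2.90, 2.50 and 2.83, a log2 fold change of -1.71 ± 0.09 (limma adjusted p = 0.00070). For both genes the blank and siSRSF1-2 libraries were far apart, and both calls held without any 1 library. AZIN1, the coding gene nearest to GASAL1, had a log2 fold change of -0.19.

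ENSG00000249199, an unnamed gene of chromosome 5 (17369225 to 17375577), had the largest decrease. It was at 30.9, 33.3 and 27.9 FPKM in blank and 6.23, 7.13 and 8.11 with siSRSF1-2, a log2 fold change of -2.09 ± 0.12 (limma adjusted p = 0.00085). ENSG00000260025, whose start lies back to back with that of CRIM1 at 812 bases, was at 17.1, 15.4 and 16.8 FPKM in blank and 5.33, 5.92 and 4.93 with siSRSF1-2, a log2 fold change of -1.59 ± 0.09 (limma adjusted p = 0.00085). CRIM1, which encodes a transmembrane protein that binds bone morphogenetic proteins, had a log2 fold change of -0.81, under the fold required, and of -1.73 with siSRSF1-3 (limma adjusted p = 0.0505). With siSRSF1-3, ENSG00000260025 was at 61.0, 32.8 and 16.0 FPKM, so its libraries ran from far above blank to inside the blank range. The direct comparison of siSRSF1-3 with siSRSF1-2 gave a log2 fold change of 2.54 ± 0.46 for it (limma adjusted p = 0.073), which did not pass the threshold. ENSG00000276850, whose level in blank was 21.8, 7.63 and 7.78 FPKM, was at 3.75, 3.98 and 3.70 with siSRSF1-2 (log2 fold change -1.49 ± 0.41, limma adjusted p = 0.041), and its call was lost without any single library of 5 of the 6. The other 4 members called lower had log2 fold changes of -1.01 to -1.24.

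**Figure D2:**
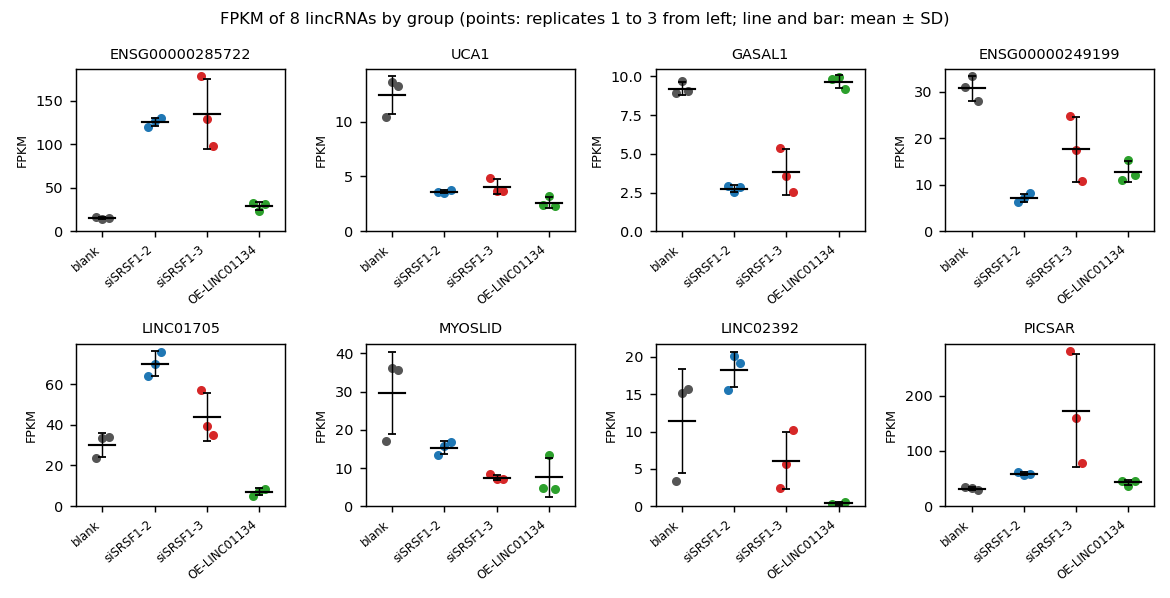
FPKM of 8 lincRNAs by group, with a point for each of 3 libraries (replicates 1 to 3 from left) and lines with bars for the mean ± SD, each panel from 0. ENSG00000285722 is high with both siRNAs, UCA1 is low in all 3 treated groups, and GASAL1 is at 2.50 to 5.39 FPKM with the siRNAs against 8.90 to 9.94 in the other libraries.

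Of the 21 members called with siSRSF1-2, 8 kept the call whichever library was left out: ENSG00000285722, LINC01705, LINC00106 and ENSG00000261770 among the higher and UCA1, GASAL1, ENSG00000249199 and ENSG00000260025 among the lower. LINC00106 and ENSG00000261770 were singled out after their values were seen. ENSG00000261770 lies inside the span of LINC00662, another member, on the same strand of chromosome 19, so their reads may be shared. LINC00106 was at 3.72, 4.70 and 3.36 FPKM in blank and 10.5, 9.09 and 8.33 with siSRSF1-2.

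With siSRSF1-3, few members passed the test. Their median log2 fold change against blank was 0.67, compared with -0.01 over all genes tested, and 151 of 200 were above 0. Since the siSRSF1-3 libraries took part in choosing the members, these values are a description, and 200 lincRNA genes chosen by their blank mean alone had a median of 0.44 with 136 above 0. Past the threshold, 2 members were higher and 3 lower, against 0.331% and 0.929% (1.26% in all) of the genes tested. At an unadjusted limma p under 0.05 with the same fold, 56 were higher and 11 lower, against 7.57% and 7.24% of all genes. The siSRSF1-3 libraries lay wholly above the blank libraries for 82 members and wholly below for 17, against 19.2% and 18.0% of all genes.

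The shift was graded over the siSRSF1-3 libraries. Relative to the blank mean, the members' median log2 difference was 1.0, 0.66 and 0.30 in replicates 1 to 3, while the median of all genes tested lay between -0.03 and 0.04. In the siSRSF1-2 libraries the members' median was 0.16 to 0.17. Without siSRSF1-3 replicate 3, 75 members (37.5%) passed the threshold upward and 11 (5.5%) downward, against 12.5% and 11.4% of all genes. The siSRSF1-3 libraries took part in choosing the members, 115 of which were highest in replicate 1. The choice therefore favours higher calls here, and these shares are a description. Without blank replicate 2 or 3 or siSRSF1-3 replicate 2 there were 0 and 0, against 0.0% and 0.0% of all genes. Without blank replicate 1 there were 0 and 2, against 0.0057% and 0.16%. One fit over all 4 groups, which shares the spread of the other groups, called 55 members higher and 7 lower, against 7.1% and 6.71% of all genes. Without siSRSF1-3 replicate 1 the members' median was 0.43, with 1 higher and 0 lower, against 0.0057% and 0.0684% of all genes.

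Other properties of the libraries moved in the same order. Genes of cytosolic ribosomal proteins took 16.5%, 12% and 7.03% of reads in siSRSF1-3 replicates 1 to 3 and 5.55% to 6.84% in the other libraries. The library size implied by the deposited FPKM was 0.712, 0.888 and 1.06 times the library's own reads in these replicates and 0.990 to 1.09 times elsewhere. When FPKM were scaled to each library's own reads, the members' median with siSRSF1-3 was 0.42 and that of all genes -0.26. When they were rescaled to the same sum the medians were 0.23 and -0.43. The members took 0.637%, 0.553% and 0.531% of reads with siSRSF1-3 and 0.537% to 0.544% with siSRSF1-2, against 0.377% to 0.457% in blank, with a counting error under 0.0030 percentage points (95% Wilson intervals). As a share of the summed FPKM of all genes, the members held 1.09% to 1.10% with siSRSF1-3, 1.11% to 1.12% with siSRSF1-2, 0.668% to 0.901% in blank and 0.718% to 1.01% with OE-LINC01134. The part of these properties in the result was not tested.

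Coding genes of the same length were set beside the members. Protein coding genes with the length of the shortest 67 members (up to 733 bases) lay at a median of 0.67 on the log2 scale with siSRSF1-3 (86 genes), and those with the length of the middle 66 members had 0.55 (1160 genes). Longer ones, over 2074 bases, had -0.06 (11024 genes). The members themselves had medians of 0.71, 0.77 and 0.47 in these length classes. The coding genes were binned by the same limits and not matched gene by gene. The other 1005 lincRNA genes tested had a median of 0.23. For 200 lincRNA genes chosen without the siSRSF1-3 libraries the median was 0.45. By position, the median was 0.55 for members farther than 5 kb from a coding gene, 0.69 for those that overlapped another gene and 0.69 for those within 5 kb of a coding gene. The 32 members back to back with a coding gene, a class that crosses these, had a median of 0.94 with 30 above 0, and of 0.00 with 16 above 0 in the comparison of siSRSF1-2 with blank.

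**Figure D3:**
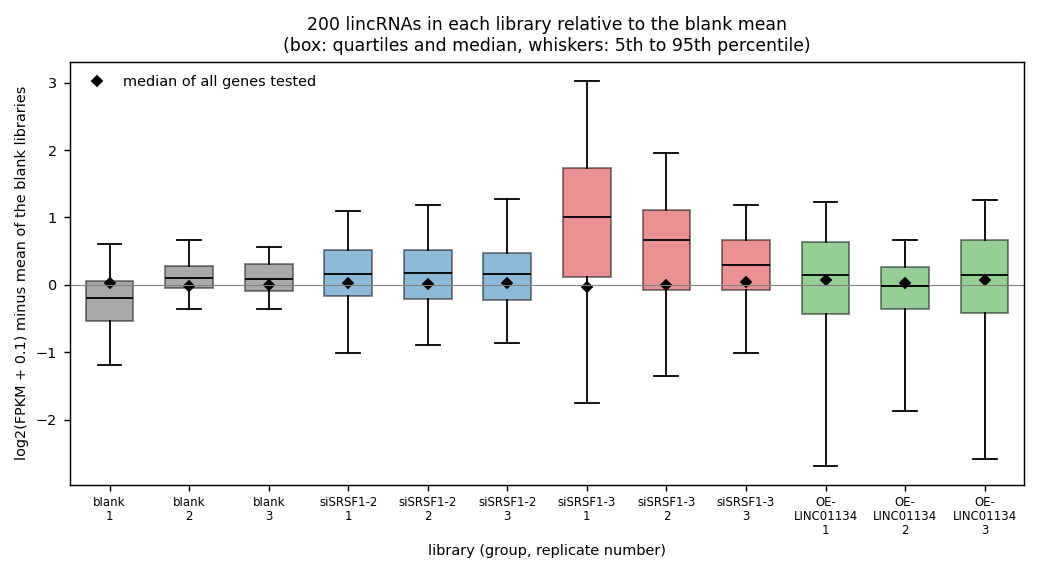
Boxes give the quartiles and median of log2(FPKM + 0.1) minus the blank mean over the 200 lincRNAs in each library, whiskers the 5th to 95th percentile, and diamonds the median of all genes tested. The lincRNA median is at 1.0, 0.66 and 0.30 in the siSRSF1-3 replicates and between -0.20 and 0.17 in the other libraries, while the diamonds stay between -0.03 and 0.07.

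The members past the threshold with siSRSF1-3 were few. Beside ENSG00000285722, ENSG00000224817 rose from 5.71, 7.50 and 7.35 FPKM to 17.0, 15.8 and 15.2 (log2 fold change 1.22 ± 0.18, limma adjusted p = 0.045), with no overlap. It was one of the few members whose siSRSF1-3 libraries lay close together, and it was at 13.9, 11.4 and 10.4 FPKM with siSRSF1-2. MYOSLID, a lincRNA known as a promoter of smooth muscle differentiation, fell from 17.2, 36.2 and 35.7 FPKM to 8.30, 7.06 and 7.08 (log2 fold change -1.90 ± 0.31, limma adjusted p = 0.047). All siSRSF1-3 libraries were under the lowest blank library, which was replicate 1. KLF7, a transcription factor gene that neighbours MYOSLID, had a log2 fold change of -1.01 that did not pass the test (limma adjusted p = 0.063).

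UCA1 and ENSG00000269927 fell with both siRNAs. UCA1 was at 4.89, 3.64 and 3.69 FPKM with siSRSF1-3, a log2 fold change of -1.59 ± 0.20 (limma adjusted p = 0.043). ENSG00000269927 was at 14.7, 10.3 and 12.1 FPKM in blank, 5.53, 6.27 and 6.40 with siSRSF1-2 and 5.03, 4.12 and 3.15 with siSRSF1-3. On the log2 scale its changes were -1.01 ± 0.14 with siSRSF1-2 (limma adjusted p = 0.0055) and -1.58 ± 0.23 with siSRSF1-3 (limma adjusted p = 0.045). None of the 5 calls with siSRSF1-3 held in all 6 comparisons that left out 1 library. GASAL1 was at 5.39, 3.59 and 2.51 FPKM with siSRSF1-3, below every blank library, but did not pass the test (log2 fold change -1.31 ± 0.28, limma adjusted p = 0.064).

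The siRNAs were also compared with each other. The median log2 difference of siSRSF1-3 from siSRSF1-2 was 0.53 for members and -0.02 for all genes tested. The sign of the member value depended on the scaling: it was 0.22 against -0.31 for all genes on own reads, and -0.05 against -0.57 with FPKM rescaled to the same sum. In limma 0 members passed the threshold in either direction, against 0.0342% higher and 0.0513% lower over all genes. By unadjusted p under 0.05 and the fold required, 52 members were higher and 16 lower, against 9.01% and 7.42% of all genes. With limma's voom on the recovered reads 3 were higher and 2 lower, against 0.319% and 0.308% of all genes, and in one fit over all 4 groups 51 and 13, against 8.39% and 7.18%. Without siSRSF1-3 replicate 3 there were 81 and 23, against 16% and 14.5%. The siSRSF1-3 libraries lay wholly above those of siSRSF1-2 for 101 members and wholly below for 43, against 27.0% and 27.6% of all genes. Both groups took part in choosing the members, and siSRSF1-3 had the highest group mean for 125 of them, so these values are a description. For 200 lincRNA genes chosen without the siSRSF1-3 libraries the median was 0.40. Protein coding genes with the length of the shortest 67 and the middle 66 members had medians of 1.10 and 0.76.

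**Figure D4:**
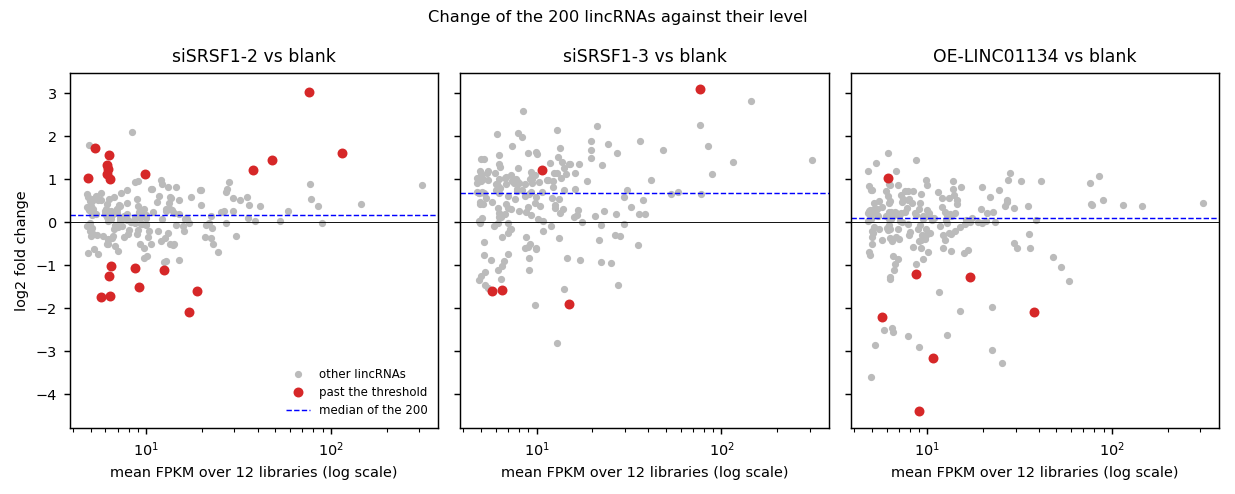
Log2 fold change of each of the 200 lincRNAs against its mean FPKM (log axis) in the 3 comparisons with blank, red where past the threshold, with a dashed line at the median of the 200. The median is at 0.16, 0.67 and 0.10 from left to right, and ENSG00000285722 is the highest red point with both siRNAs at 3.03 and 3.09.

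The comparison of OE-LINC01134 with blank asks which lincRNAs differ when LINC01134 is overexpressed. Here 1 member was higher and 6 were lower past the threshold, against 0.257% and 0.593% of all genes tested. The members' median log2 fold change was 0.10, near the 0.05 of all genes. The call counts turned on which libraries entered. Without blank replicate 1 there were 6 higher and 28 lower, against 1.81% and 3.68% of all genes. Without OE-LINC01134 replicate 2 there were 16 and 23, against 2.91% and 5.87%, and without both libraries there were 19 and 32, against 5.1% and 8.84%. Without blank replicate 2 or 3, or OE-LINC01134 replicate 1 or 3, limma called 0 and 0, against at most 0.0114% and 0.0399% of all genes. By unadjusted p under 0.05 and the fold required, 8 members were higher and 24 lower with all libraries, against 2.45% and 5.0% of all genes. The OE-LINC01134 libraries lay wholly above the blank libraries for 30 members and wholly below for 34, against 16.8% and 13.8% of all genes.

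Among the members that passed the test, LINC02392 and LINC02296 had the largest decreases. LINC02392 was at 3.38, 15.2 and 15.7 FPKM in blank and 0.338, 0.196 and 0.592 with OE-LINC01134 (log2 fold change -4.40 ± 0.63, limma adjusted p = 0.040). LINC02296 was at 4.38, 16.5 and 18.6 FPKM in blank and 1.27, 1.14 and 1.03 with OE-LINC01134 (log2 fold change -3.17 ± 0.52, limma adjusted p = 0.0495). In both genes blank replicate 1 was several fold under the other blank libraries and still above all 3 OE-LINC01134 libraries. Neither was past the threshold with a siRNA. Since 0.1 was added to each value, the fold of such low levels is understated. The OE-LINC01134 values rested on 11, 6 and 19 reads for LINC02392 and on 20, 17 and 16 for LINC02296. Of 12 other planned settings, 8 kept the call of LINC02392 and 4 that of LINC02296, and both were lost with limma's voom on the recovered reads.

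UCA1 fell here as well, to 2.39, 3.20 and 2.26 FPKM, a log2 fold change of -2.21 ± 0.18 (limma adjusted p = 0.014). It was the sole member called lower in all 3 comparisons, each of which rests on the same blank libraries. LINC01705 fell from 23.5, 33.2 and 33.9 FPKM to 5.22, 7.36 and 8.53 (log2 fold change -2.09 ± 0.23, limma adjusted p = 0.023), the opposite of its change with siSRSF1-2. ENSG00000249199 was at 11, 15.3 and 12 FPKM (log2 fold change -1.27 ± 0.15, limma adjusted p = 0.031). The remaining decrease, that of ENSG00000259878, was from 6.98, 8.48 and 9.11 FPKM to 3.43, 3.57 and 3.54, and this gene is named after its values were seen. ENSG00000261770 was the 1 member called higher, from 4.31, 3.55 and 3.39 FPKM to 7.93, 6.49 and 8.78 (log2 fold change 1.02 ± 0.16, limma adjusted p = 0.049). It was also called higher with siSRSF1-2, at 8.52, 8.39 and 7.84 FPKM. LINC00662, the member whose span holds it, had log2 fold changes of 0.48 with siSRSF1-2 and 0.71 with OE-LINC01134, both under the fold required. Adjacent members could be low together without passing the test. ENSG00000222022 and ENSG00000222032, neighbours on chromosome 2 that were picked after their values were seen, were at 13.6, 35.7 and 36.4 FPKM and at 19.9, 43.4 and 47.4 FPKM in blank. With OE-LINC01134 they were at 1.76, 8.59 and 2.26 and at 1.72, 14.1 and 1.68 FPKM, with replicate 2 nearest to blank in both (log2 fold changes -2.96 and -3.27, limma adjusted p = 0.069 and 0.085). Each of the 7 calls with OE-LINC01134 was lost in 4 of the 6 comparisons that left out 1 library.

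**Figure D5:**
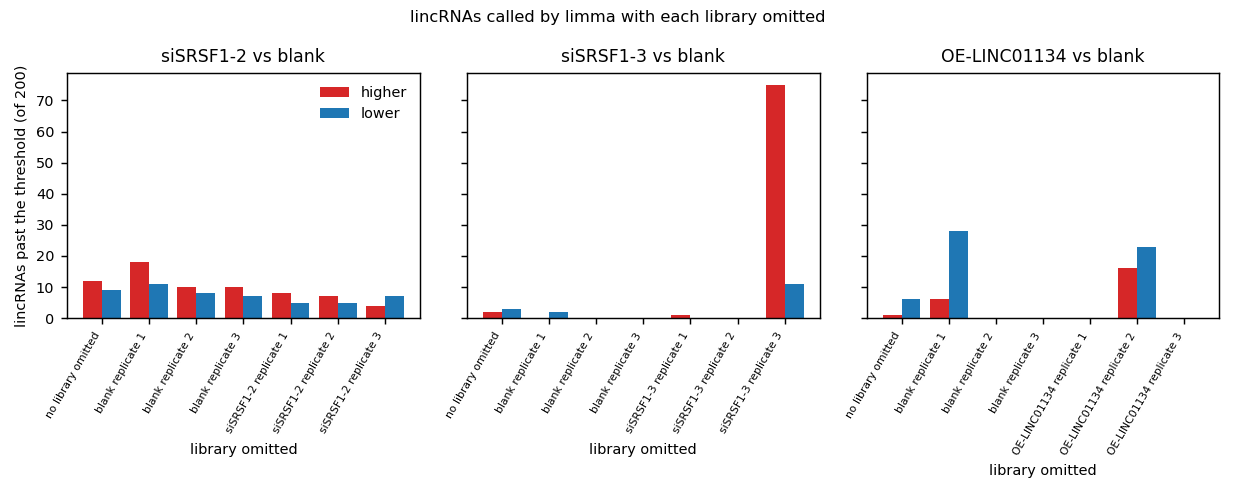
Bars give the number of the 200 lincRNAs called higher or lower by limma with no library omitted and with each library omitted in turn, in the 3 comparisons with blank. With siSRSF1-3 the count reaches 75 higher without siSRSF1-3 replicate 3, where 12.5% of all genes are called higher. With OE-LINC01134 it reaches 28 lower without blank replicate 1, where 3.68% of all genes are called lower.

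The 4 microRNA host genes among the members carry microRNAs in their transcripts. None passed the threshold in any comparison, where 0.0855% to 4.95% of all genes did. MIR22HG was at 8.70, 7 and 7.12 FPKM in blank, 8.70, 8.75 and 8.82 with siSRSF1-2, 2.94, 4.94 and 6.33 with siSRSF1-3 and 7.48, 6.33 and 6.49 with OE-LINC01134. Its siSRSF1-3 libraries lay below every blank library, and the log2 fold change of -0.73 ± 0.29 did not pass (limma adjusted p = 0.16). MIR222HG was at 13.8, 9.61 and 9.55 FPKM in blank, 10.3, 10.95 and 10.8 with siSRSF1-2, 7.44, 7.18 and 6.81 with siSRSF1-3 and 4.58, 8.29 and 4.38 with OE-LINC01134, so that both of the last groups lay below every blank library. MIR3142HG, which hosts miR-146a, was at 3.69, 13.5 and 14.1 FPKM in blank and 0.552, 2.82 and 0.942 with OE-LINC01134, below every blank library, without passing the test (log2 fold change -2.84 ± 0.70, limma adjusted p = 0.080). MIR4435-2HG was at 4.86 to 12.7 FPKM over the libraries. It is a near-identical copy of CYTOR, another member, at 3.47 to 23.8 FPKM, and their reads may be shared.

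Of a list of 32 known lincRNAs, 28 had a gene in the file, 16 were tested and 5 were members: PICSAR, EPB41L4A-AS1, CYTOR, UCA1 and HCG11. Over the 16, 0 were higher and 1 was lower with each siRNA, and 0 and 2 with OE-LINC01134. Of all genes, 2.22% were higher and 2.73% lower with siSRSF1-2, 0.331% and 0.929% with siSRSF1-3 and 0.257% and 0.593% with OE-LINC01134. UCA1 was the lower one in each case, joined by LINC00665 with OE-LINC01134. EPB41L4A-AS1 was at 5.35, 12.4 and 12.8 FPKM in blank and at 57.2, 37.7 and 20.8 with siSRSF1-3, above every blank library (log2 fold change 1.90 ± 0.47, limma adjusted p = 0.080). HCG11 was at 4.41, 3.56 and 3.57 FPKM in blank, and at 5.45, 5.62 and 5.19 with siSRSF1-2, a log2 fold change of 0.49. Of 7 lincRNAs linked to p53, 6 had a gene in the file, 4 were tested and 2 were members. Limma called 0 of the 4 in any comparison, where it called 0.0855% to 4.95% of all genes, and voom called 0. At an unadjusted p under 0.05 there were 1 or 2, a level that 26.3% to 42.1% of all genes reached. PURPL, which lowers basal p53, was at 14.9 to 36.7 FPKM, and PINCR, which p53 induces, was at 3.92 to 14.4 FPKM with its highest value in siSRSF1-3 replicate 1.

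The nuclear RNA exosome and its cofactors degrade many lincRNAs. All 22 of its genes listed were tested, and limma called 0 of them in any of the 4 comparisons, where 0.0855% to 4.95% of all genes were called. At an unadjusted p under 0.05, whatever the fold, there were 5 with siSRSF1-2, 9 with siSRSF1-3, 6 with OE-LINC01134 and 12 between the siRNAs, where 40.3%, 28.8%, 26.3% and 42.1% of all genes were under it, and voom called 0 in each. The median over the 22 was 0.06 (log2) with siSRSF1-2, 0.17 with siSRSF1-3 and 0.14 with OE-LINC01134.

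Neighbouring coding genes were tested for 145 members. The members are not independent of each other, and the change of member and neighbour (log2 fold) correlated at r = 0.26 with siSRSF1-2, 0.09 with siSRSF1-3 and 0.33 with OE-LINC01134. For the 64 pairs with a gap of 5 kb or less, overlaps included, r was 0.50, 0.11 and 0.25. In the same order, member and neighbour had the same sign in 79, 73 and 90 of the 145 pairs and in 36, 28 and 44 of the 64. Each pair shares its libraries and may share reads, so these values are descriptions. Of the members called in any comparison, ENSG00000272468 was the sole one whose neighbour was called in the same comparison. Its neighbour H2BC11, a histone H2B gene 2676 bases away, fell by 1.21 on the log2 scale with siSRSF1-2 (limma adjusted p = 0.021), beside -1.24 for the member. This pair was named after its values were seen.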

How the data were processed

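RNA of U2OS cells was sequenced in 12 libraries, 3 per group. According to the study's methods, mRNA was selected with poly-T beads and read as 150 bp pairs, while the labels name a different library kit (SMARTer) from those methods (NEBNext). The aligner, the counting program and the build are not given in the sources used here for these human genes. The labels give mouse as the organism and mouse builds, but the genes carry human Ensembl identifiers, so coordinates are as the file gives them. The blank columns of the table carry other names than the labels and were matched as the one remaining group. The authors deposited FPKM per gene and library. The values imply library sizes of 0.712 to 1.09 times the reads on genes. FPKM times length gave whole reads for 100% of values (tolerance 0.01 reads), from 26237763 to 32954539 per library. Intervals cover counting error only.

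The test was limma 3.58.1 (R 4.3.3, eBayes with trend) on log2(FPKM + 0.1) for 17538 genes whose mean reached 0.5 FPKM, with Benjamini-Hochberg adjustment. Each comparison used its own 3 + 3 libraries. Fold changes on this scale understate changes of low genes. On simulated siSRSF1-2 data over 17538 genes, 175 of 200 changed genes and 3 unchanged ones were called. The simulation gave every gene the same setting of spread and held no library that stands apart. Its changes were over the fold required and only in genes with many reads. These counts therefore do not measure performance on the real libraries. Alternatives were other pseudocounts, filters, scalings, fits and the omission of each library. Named members were the 10 highest, the 5 higher and 5 lower calls with the largest change and no overlap, those called with both siRNAs, the microRNA host genes, members of the lists, the nearest coding gene of called members, and those at the cut-off. Members, lists and tests were chosen with earlier results of these data known. Names without a symbol are given by identifier.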

Additional observations from a re-analysis of the deposited data

Results flagged for a closer look

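LINC01705 moved in opposite directions under 2 agents. Against blank, its log2 fold change was 1.22 with siSRSF1-2 and -2.09 with OE-LINC01134, both past the threshold in limma. Every siSRSF1-2 library (63.8 to 75.9 FPKM) was above every blank library (23.5 to 33.9), and every OE-LINC01134 library (5.22 to 8.53) was below. Both comparisons use the same blank libraries, and the difference between the groups was not tested. The call with siSRSF1-2 held without any 1 library, and that with OE-LINC01134 was lost in 4 of 6 such comparisons. Groups of 3 are too small for a test of single outlying libraries.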

How the results depend on the processing

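Counts of lincRNAs past the threshold are given as higher and lower, with the share of all genes called in the same setting in brackets. With siSRSF1-2 the 12 and 9 became 6 and 5 with no filter on low values (0.438% and 0.565%). They became 7 and 5 in one fit over all 4 groups (0.764% and 1.03%) and 37 and 22 with no minimum fold (14.0% and 12.8%). With siSRSF1-3 the 2 and 3 became 1 and 1 with a pseudocount of 0.01 (0.0912% and 0.268%) or no mean-variance trend (0.182% and 0.69%). They became 1 and 0 with no filter (0.017% and 0.08%) or FPKM rescaled to the same sum (0.0057% and 0.0%). One fit gave 55 and 7 (7.1% and 6.71%). The 2 higher became 4 with a mean FPKM of at least 1 (0.573%), 1 when scaled to own reads (0.0627%) and 8 with voom (1.0%). With OE-LINC01134 the 1 and 6 became 0 and 1 with no filter (0.0119% and 0.0562%) and 2 and 21 in one fit (0.992% and 2.94%). The 1 higher became 0 with a pseudocount of 1 (0.188%) or 0.01 (0.194%), median-of-ratios factors (0.228%) or no trend (0.165%). It became 2 with the same sum (0.473%) or no minimum fold (0.45%). Between the siRNAs the 0 and 0 became 1 and 2 with a pseudocount of 1 (0.188% and 0.291%). They became 1 and 1 with a mean FPKM of at least 1 (0.145% and 0.104%) or own reads (0.0342% and 0.0513%). One fit gave 51 and 13 (8.39% and 7.18%) and voom gave 3 and 2 (0.319% and 0.308%). The cause of these moves was not tested.

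Leaving out 1 library at a time gave 4 to 18 higher and 5 to 11 lower with siSRSF1-2, against 1.15% to 3.03% and 1.89% to 3.74% of all genes. With siSRSF1-3 there were 0 to 75 and 0 to 11, against 0.0% to 12.5% and 0.0% to 11.4%. With OE-LINC01134 there were 0 to 16 and 0 to 28, against 0.0057% to 2.91% and 0.0% to 5.87%. Between the siRNAs there were 0 to 81 and 0 to 23, against 0.0% to 16.0% and 0.0% to 14.5%. With replicate number as a block the counts were 9 and 8, 0 and 0, 0 and 1, and 0 and 0 in the same order. The shares of all genes called were then 1.71% and 2.17%, 0.0% and 0.0%, 0.0057% and 0.0171%, and 0.0% and 0.0%. Same-numbered libraries did not deviate together (r from -0.08 to 0.04), so no pairing by number was seen. With 3 libraries a group, some of which stand apart, this check cannot exclude a pairing. The last 2 alternatives were chosen after seeing the data. Averaging the close replicates left 1 siSRSF1-2 library, 2 blank and 2 OE-LINC01134 libraries. For siSRSF1-2 only the members' medians are therefore given, 0.21 against blank and 0.53 for siSRSF1-3 against siSRSF1-2. With siSRSF1-3 or OE-LINC01134 against blank the averaging gave 0 and 0, where so few libraries can hardly call any gene. Leaving out both libraries that stand apart gave 0 and 0 with siSRSF1-3 (without blank replicate 1 and siSRSF1-3 replicate 1) and 19 and 32 with OE-LINC01134. Of all genes, 0.0% and 0.0% were then called with siSRSF1-3 and 5.1% and 8.84% with OE-LINC01134. For single lincRNAs, 312 of the planned values kept their direction and call and 84 lost the call, as did 93 of those without 1 library, and 0 reversed. With 3 libraries a group, the spread of siSRSF1-3 and the libraries that stand apart limit what these tests can call.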
